A study of Mus musculus with 36 samples.

Results

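Gene expression in the prefrontal cortex (PFC) of mice was compared between spared nerve injury (SNI) and sham surgery. The 12 PFC libraries were taken by their labels, 6 sham (sample numbers 13 to 18) and 6 SNI (19 to 24), out of 36 RNA sequencing libraries in the series, which also covers the nucleus accumbens (NAc) and the periaqueductal grey (PAG). All mice were adult C57BL/6 males with no stated transgene, operated on the sciatic nerve, and tissue was taken 2.5 months after surgery. In SNI some branches of the sciatic nerve are cut while another is spared, and the operated paw stays hypersensitive for a long time. The sham mice had surgery without that injury. Polyadenylated RNA from pooled samples was sequenced. The labels do not say how many mice stand behind a library or whether libraries of a group came from separate mice, so a p-value here measures only how far libraries of a group scatter, which may be technical.

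The medial prefrontal cortex takes part in the evaluation and top-down control of pain, and its pyramidal neurons are studied as a site of altered activity in chronic pain. Immediate-early genes such as Npas4, Fos and Arc are transcribed within minutes of neuronal firing and calcium entry, largely through the transcription factors CREB and SRF at DNA motifs near their start sites. Their RNA is short-lived, so a library records activity shortly before the tissue was frozen.

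Expression is given in RPKM, reads per kilobase of gene and per M (mega) assigned reads. The PFC libraries held 36.3 to 64.7 M assigned reads, with a median of 50.4 M in sham and 50.8 M in SNI libraries (exact permutation p = 0.396, two-sided). The libraries carried the markers of cortex: Slc17a7, the vesicular glutamate transporter of cortical excitatory neurons, stood at 439, 475 and 499 RPKM (lowest, median and highest sham library) and at 414, 474 and 543 RPKM in SNI libraries, against at most 2.79 RPKM in sham PAG. Sham NAc libraries also held Slc17a7, at 1.59, 93.0 and 139 RPKM, so it sets PFC apart from NAc less clearly. Fezf2, a factor of deep-layer projection neurons, stood at 17.8, 22 and 24.6 RPKM in sham PFC, with at most 1.63 RPKM in sham NAc. Adora2a, which marks striatal neurons of the indirect pathway, stayed between 0.470 and 0.836 RPKM in sham PFC against 45.7 RPKM or more in sham NAc. Slc17a7 differed by 0.01 on the log2 scale between SNI and sham (exact permutation p = 0.937, two-sided).

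Sham library 13 and SNI libraries 19 and 24 stood apart from the rest. Sham library 13 and SNI library 19 lay together at the far end of the leading axis of variation within groups, which held 41.8% of the within-group variance. The same libraries had the most negative slopes of expression on GC content, -0.26 and -0.24 log2 units per 10 percentage points, against -0.12 to 0.12 in the other PFC libraries. SNI library 24 had a high level of striatal genes: the mean log2 deviation of 12 tested markers of striatal medium spiny neurons was 0.93 there, against at most 0.02 in the other PFC libraries. Its summed level over the list was 124 RPKM, while the sham libraries ranged from 60.8 to 67.9 RPKM. In it Drd2, the dopamine D2 receptor, reached 6.65 RPKM, which is far below the 74.8 RPKM of the lowest sham NAc library.

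No gene passed the adjusted threshold in the PFC. Of 15192 genes tested with limma on log2(RPKM + 0.5), 0 (0%) were called after Benjamini-Hochberg adjustment, and every adjusted p was 1.0 after rounding. At an unadjusted p under 0.05, 107 genes lay higher in SNI libraries (0.704%) and 113 lower (0.744%). With a fold of at least 1.3 added, 17 lay higher (0.112%) and 29 lower (0.191%), and only 5 of these 46 were protein-coding genes averaging 1 RPKM or more. The 2 groups of 6 values did not overlap for 8 genes that were higher (0.0527%) and 5 that were lower (0.0329%) in SNI. The differences that follow are therefore measured values and not called changes.

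On the log2(RPKM + 0.5) scale most intervals were narrow. This scale understates the change of low genes. The intervals measure the scatter of libraries, which may be technical, so they may not bound a difference between mice. The 95% interval of the SNI minus sham difference lay within 1.5-fold in both directions for 94.6% of the tested genes (14372 of 15192), and the median interval reached 0.17 to either side on the log2 scale, or 1.12-fold. Over all genes the median difference was 0.00 and 52.0% lay higher in SNI. A difference beyond 0.5 on the log2 scale was measured for 55 genes and beyond 1 for 2 genes. Among protein-coding genes averaging 1 RPKM or more at an unadjusted p under 0.05, the largest downward differences were those of the activity-induced genes Npas4, Btg2, Dusp1 and Cyr61, as the plot of all tested genes shows.

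**Figure D1:**
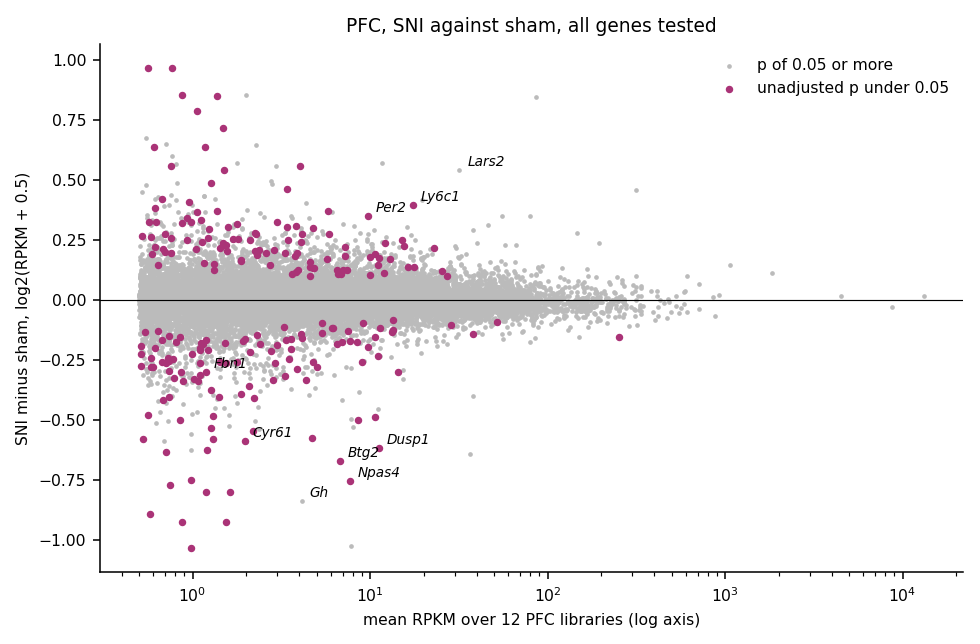
Difference between SNI and sham PFC (vertical axis, log2(RPKM + 0.5)) against the mean over the 12 PFC libraries (horizontal log axis, RPKM) for the 15192 genes tested. Each point is a gene, purple points are the 220 with an unadjusted limma p under 0.05, and Npas4, Btg2, Dusp1 and Cyr61 lie at -0.76 to -0.59 at levels where most genes stay near 0.

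The activity-induced genes with the lowest p were Npas4, Btg2, Cyr61 and Dusp1, and all 4 lay lower in SNI libraries. Npas4 (ENSMUSG00000045903, chr19:4984355-4990316, minus strand, mm10) encodes a transcription factor that is induced selectively by calcium entry into neurons and shapes inhibitory synapses. In sham PFC its lowest, median and highest values were 5.47, 10.2 and 12.9 RPKM, and in SNI PFC they were 4.48, 5.46 and 6.43 RPKM. Every SNI library lay below the sham median, and the groups overlapped through sham library 15 alone. The difference was -0.76 (SE 0.17, 95% interval -1.12 to -0.39) on the log2 scale, with an exact permutation p of 0.00866 (two-sided, 924 assignments). Its limma p adjusted over all genes was 1.0. Npas4 had been singled out with earlier results of these data known, so these p-values are no independent support.

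Btg2 (chr1:134075170-134079120, minus strand), an anti-proliferative cofactor of transcription that is induced by growth factors and neuronal activity, stood at 4.58, 8.88 and 11.5 RPKM in sham and 3.77, 4.73 and 6.71 RPKM in SNI libraries. The groups overlapped through sham library 18 alone, and the difference was -0.67 (SE 0.19, 95% interval -1.09 to -0.25, limma, adjusted p = 1.0). Cyr61 (Ccn1, chr3:145646976-145649981, minus strand), a secreted matrix protein that is a classic immediate-early gene of growth factor signalling, stood at 1.45, 2.42 and 3.41 RPKM in sham and 1.02, 1.46 and 2.18 RPKM in SNI libraries. Again sham library 18 alone reached into the SNI range, and the difference was -0.59 (SE 0.16, 95% interval -0.94 to -0.24, limma, adjusted p = 1.0). Dusp1 (chr17:26505590-26562128, minus strand), a phosphatase that switches off MAP kinases after stimulation, stood at 6.62, 14.3 and 18.7 RPKM in sham and 5.5, 8.3 and 12 RPKM in SNI libraries. The other 5 sham libraries lay above all 6 SNI libraries, and the difference was -0.62 (SE 0.24, 95% interval -1.13 to -0.11, limma, adjusted p = 1.0). Without sham library 13 and SNI libraries 19 and 24 the differences were -0.62 for Npas4, -0.56 for Btg2, -0.44 for Cyr61 and -0.30 for Dusp1, and Dusp1 alone of these no longer had an unadjusted p under 0.05.

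**Figure D2:**
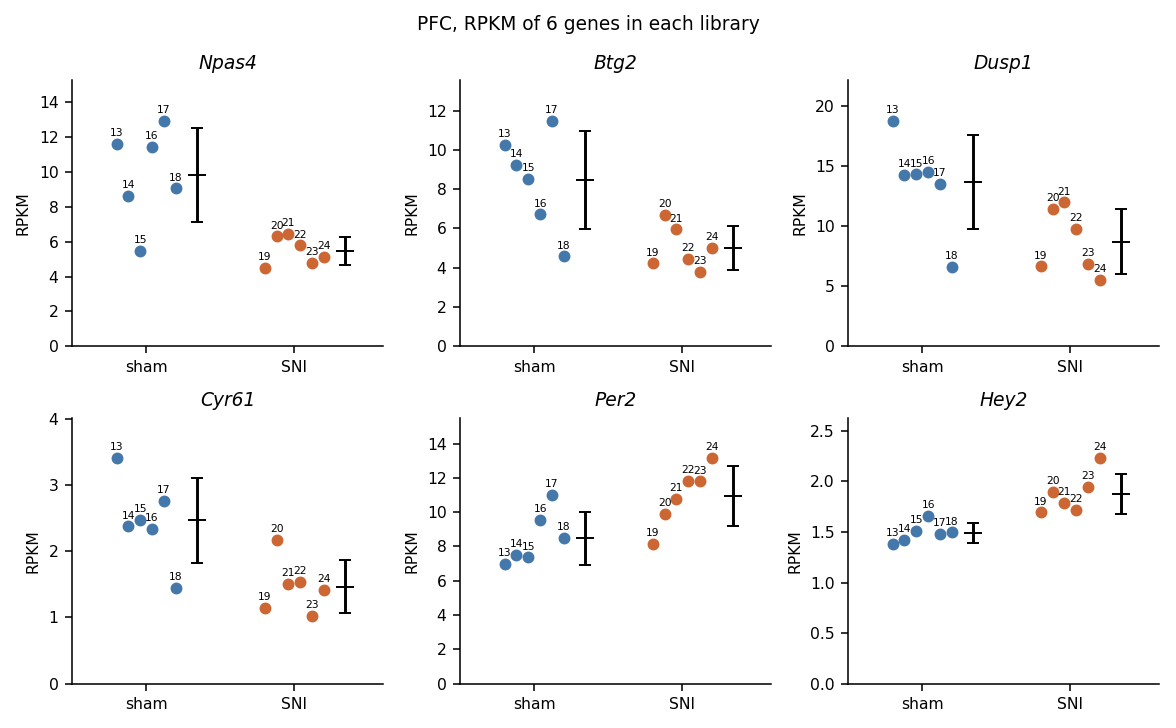
RPKM (vertical axes, starting at 0) of 6 genes in each sham (blue) and SNI (orange) PFC library, labelled with the sample number, with the mean and SD of each group in black. Npas4, Btg2, Dusp1 and Cyr61 lie lower in SNI libraries apart from sham library 15 for Npas4 and sham library 18 for the other 3, and Per2 and Hey2 lie higher.

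The promoters of these 4 genes are shown because they are the activity-induced genes with the lowest p, and cAMP response elements (CRE), the binding motif of CREB, are known in genes of this kind. Each line gives 250 bases before to 50 bases after the RefSeq start on build GRCm38.p6, read 5′ to 3′ along the gene's strand, which is the minus strand for all 4. Capitals mark every match to the full CRE, TGACGTCA, or to its core, TGACG, on either strand; a core within a full CRE is counted in both. The windows are chr19:4989922-4990221 for Npas4, chr1:134079106-134079405 for Btg2, chr3:145649936-145650235 for Cyr61 and chr17:26508423-26508722 for Dusp1. For Npas4 and Dusp1 the window lies inside the gene span given above, which is that of GENCODE M21. The outermost GENCODE start of these genes lies further upstream than the RefSeq start used here.
Npas4: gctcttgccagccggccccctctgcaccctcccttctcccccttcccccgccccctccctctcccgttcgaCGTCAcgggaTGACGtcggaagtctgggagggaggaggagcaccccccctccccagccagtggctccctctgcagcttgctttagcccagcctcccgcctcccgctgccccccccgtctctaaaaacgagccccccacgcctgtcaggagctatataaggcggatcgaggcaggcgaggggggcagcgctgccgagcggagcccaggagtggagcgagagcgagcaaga
Btg2: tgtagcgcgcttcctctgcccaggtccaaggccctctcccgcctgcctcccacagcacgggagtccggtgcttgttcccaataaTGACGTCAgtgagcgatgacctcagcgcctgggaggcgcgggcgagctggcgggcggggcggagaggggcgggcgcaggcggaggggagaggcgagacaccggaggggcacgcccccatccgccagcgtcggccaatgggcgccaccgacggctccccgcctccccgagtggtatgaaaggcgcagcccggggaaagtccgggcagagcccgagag
Cyr61: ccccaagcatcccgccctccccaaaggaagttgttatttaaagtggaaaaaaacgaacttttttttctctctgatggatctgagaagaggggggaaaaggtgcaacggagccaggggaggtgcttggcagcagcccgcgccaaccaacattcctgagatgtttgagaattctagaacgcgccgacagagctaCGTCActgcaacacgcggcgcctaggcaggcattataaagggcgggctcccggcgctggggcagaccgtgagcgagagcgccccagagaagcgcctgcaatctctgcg
Dusp1: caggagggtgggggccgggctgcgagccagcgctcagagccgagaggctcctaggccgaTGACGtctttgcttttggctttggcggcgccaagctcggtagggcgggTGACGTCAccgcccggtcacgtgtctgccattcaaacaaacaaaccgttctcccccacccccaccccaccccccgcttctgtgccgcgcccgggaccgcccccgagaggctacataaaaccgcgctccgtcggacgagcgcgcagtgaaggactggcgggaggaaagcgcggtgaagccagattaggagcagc

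Btg2 and Dusp1 each held 1 full CRE, which ends 159 and 136 bases before the start, while Npas4 and Cyr61 held none. Cores numbered 2 in Npas4, 2 in Btg2, 1 in Cyr61 and 3 in Dusp1. Of 32841 RefSeq promoter windows of the same length, 1.79% held the full CRE and 20.8% at least 1 core. The serum response element, searched by its consensus on both strands, had no match in the 4 windows and was present in 1.63% of all windows. A match is a description of the letters in the window and not of binding.

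Other immediate-early genes were more scattered. Of the 23 tested immediate-early transcription factors 10 lay higher and 13 lower in SNI libraries, with a median difference of -0.03. An unadjusted p under 0.05 was reached by 2 (Npas4 and Btg2), both lower, as 0.744% of all tested genes did. The list was chosen with earlier results of these data known. Fos, a component of AP-1 and the most used marker of recent firing, stood at 6.09, 13.5 and 16 RPKM in sham and 3.89, 11.7 and 13 RPKM in SNI libraries. Its low values belonged to sham library 18 and SNI libraries 19 and 24, and the other libraries of both groups overlapped between 11.4 and 16 RPKM; the difference was -0.45 (95% interval -1.12 to 0.21) and came to 0.08 without sham library 13 and SNI libraries 19 and 24. Junb, another AP-1 component, ranged from 2.36 to 14.4 RPKM in sham and from 0.769 to 10.9 RPKM in SNI libraries, with the lowest values in sham library 13 and SNI library 19. Nr4a1, an orphan nuclear receptor of the same wave, stood at 26.2, 45 and 57.2 RPKM in sham and 18.3, 37.8 and 43.3 RPKM in SNI libraries, a difference of -0.40 (95% interval -0.91 to 0.11). Fosb differed by 0.05 (95% interval -0.14 to 0.25) and Egr2 by -0.30 (95% interval -0.93 to 0.34), so that the interval of Fosb was much the narrower.

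The effector genes that are induced by activity lay lower more evenly. Of 28 tested members 23 lay lower and 5 higher in SNI libraries, with a median difference of -0.06 beside 0.00 over all genes, and 3 (Cyr61, Dusp1 and Gadd45b) had an unadjusted p under 0.05, all lower, where 0.744% of all tested genes did so. Arc, which removes AMPA receptors from the synapse, stood at 17.9, 47.8 and 57.9 RPKM in sham and 9.26, 34.3 and 42.6 RPKM in SNI libraries. Here too sham library 18 and SNI libraries 19 and 24 held the low values, and the difference of -0.64 (95% interval -1.49 to 0.20) shrank to -0.04 without sham library 13 and SNI libraries 19 and 24. Gadd45b, a stress and activity-induced gene linked to DNA demethylation, stood at 3.53, 4.46 and 4.95 RPKM in sham and 2.29, 3.66 and 4.3 RPKM in SNI libraries, a difference of -0.29 (SE 0.13) that was -0.11 without those 3 libraries. Bdnf, the activity-dependent neurotrophin, stood at 4.58, 5.52 and 6.6 RPKM in sham and 4.41, 5.9 and 6.46 RPKM in SNI libraries, with SNI library 24 lowest and sham library 13 highest of all, and its 95% interval ran from -0.15 to 0.26. Without the 3 libraries the list medians were 0.11 for the transcription factors and 0.01 for the effectors. That choice leaves out SNI libraries 19 and 24, the lowest SNI libraries in both lists. It keeps sham library 18, the lowest sham library in both, so it favours higher medians and cannot decide whether the lower ones hold. With each library left out in turn the medians ran from -0.0954 to 0.0465 for the transcription factors and from -0.118 to -0.0438 for the effectors. The part of single libraries in the result was not tested beyond this.

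Among 20 tested genes of the circadian clock, Per2 and Cry1 lay higher and Arntl lower in SNI at an unadjusted p under 0.05. Of all tested genes 0.704% lay higher and 0.744% lower at that threshold. Per2 (chr1:91415982-91459324, minus strand), a repressor of the clock that also responds to glucocorticoids, stood at 7.0, 8.0 and 11 RPKM in sham and 8.15, 11.3 and 13.1 RPKM in SNI libraries. All but SNI library 19 lay above 5 of the 6 sham libraries, and the difference was 0.35 (SE 0.12, 95% interval 0.09 to 0.62, limma, adjusted p = 1.0), with 0.33 left without sham library 13 and SNI libraries 19 and 24. Cry1, a partner of the PER proteins, differed by 0.13 (SE 0.05), and Arntl (Bmal1), the activator that they repress, by -0.08 (SE 0.03). Arntl varied little, at 13.4, 13.8 and 14.3 RPKM in sham and 12.6, 13 and 13.5 RPKM in SNI libraries. The intervals of Per1, a repressor like Per2 (0.05), Nr1d1, a repressor of Arntl (0.00), and Dbp, an output gene of the clock (0.09), included 0. Of the 20 tested clock genes 16 lay higher with a median of 0.04, where 52.0% of all tested genes lay higher. The labels give no time of day for the tissue.

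Outside these lists, the genes of lowest p that lay higher in SNI were small, tight differences. Hey2 (chr10:30832359-30842801, minus strand), a Notch target and transcriptional repressor, did not overlap between the groups, at 1.38, 1.49 and 1.66 RPKM in sham and 1.69, 1.84 and 2.23 RPKM in SNI libraries; the difference was 0.25 (SE 0.06, 95% interval 0.12 to 0.39, limma, adjusted p = 1.0). Ide, the insulin-degrading enzyme, which also cleaves amyloid beta, did not overlap either, at 13, 14.6 and 15.1 and 15.3, 16.6 and 19.5 RPKM with a difference of 0.22 (SE 0.06). Btaf1, a regulator of TATA-binding protein, stood at 9.92, 10.9 and 11.8 and 11.6, 13.3 and 14.7 RPKM with a difference of 0.24 (SE 0.07), and its groups met between 11.6 and 11.8 RPKM. Lonrf1, a RING-finger and LON-domain protein, separated fully with a difference of only 0.14 (SE 0.04). The remaining protein-coding genes of at least 1 RPKM whose groups separated upward were Map3k19 (0.26), Naa16 (0.12), a subunit of an N-terminal acetyltransferase, and Ramp2 (0.19), making 6 in all. Of these 6, Naa16 no longer had an unadjusted p under 0.05 without sham library 13 and SNI libraries 19 and 24.

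Genes of endothelial and mural cells had mixed differences. In all, 11 of 18 endothelial and 10 of 12 mural genes lay higher, with medians of 0.02 and 0.07. Without sham library 13, the lowest library in both lists, these medians were -0.00237 and -0.0110. An unadjusted p under 0.05 was reached by Ly6c1 in the endothelial and Higd1b in the mural list, both higher, as 0.704% of all tested genes did. Ramp2 and Mfsd2a, which are in neither list, were among the genes of lowest p. Ramp2, the partner protein that turns the calcitonin-like receptor into an adrenomedullin receptor, stood at 1.88, 2.14 and 2.26 RPKM in sham and 2.26, 2.42 and 2.93 RPKM in SNI libraries. Mfsd2a, the lipid transporter of the blood-brain barrier endothelium, stood at 6.05, 6.5 and 8.08 and 7.25, 7.68 and 9.43 RPKM and overlapped through the high value of sham library 17; its difference of 0.22 was 0.14 without sham library 13 and SNI libraries 19 and 24. Ly6c1, a surface antigen of brain endothelium, stood at 12.4, 15.3 and 16.3 and 15, 18.2 and 29.9 RPKM, with SNI libraries 24 and 19 highest; its difference of 0.39 was 0.14 without the same 3 libraries. Higd1b, a gene of pericytes, differed by 0.20 (SE 0.08) and by 0.16 without them. None of Mfsd2a, Ly6c1 and Higd1b then had an unadjusted p under 0.05. Cldn5, the tight-junction claudin, differed by -0.11 (95% interval -0.58 to 0.37), Pecam1 by 0.06 (-0.12 to 0.24) and the pericyte receptor Pdgfrb by -0.02 (-0.21 to 0.16).

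Among the further lower genes, Fbn1 was the only protein-coding gene of at least 1 RPKM whose groups separated downward. Fbn1, the fibrillin of extracellular microfibrils, stood at 1.23, 1.31 and 1.65 RPKM in sham and 0.691, 1.1 and 1.21 RPKM in SNI libraries, a difference of -0.30 (SE 0.09, 95% interval -0.50 to -0.10, limma, adjusted p = 1.0). Chsy3, which builds chondroitin sulfate chains, stood at 4.48, 5.55 and 6.95 and 4.07, 4.48 and 4.91 RPKM, and the adhesion molecule Cdh10 at 5.96, 7.06 and 7.95 and 5.38, 6.04 and 6.74 RPKM. Klf11, a zinc-finger repressor, differed by -0.18, Tipin, a replication fork protein, by -0.26, and Sephs2, which makes the selenium donor for selenoproteins, by -0.13. The salt-inducible kinase Sik2 and the collagen hydroxylase subunit P4ha1 lay on the other side, at 0.20 and 0.25. All of these had an unadjusted limma p under 0.05 and an adjusted p of 1.0. Chsy3 differed by -0.28, and without sham library 13 and SNI libraries 19 and 24 the differences were -0.18 for Chsy3, -0.20 for Tipin and -0.09 for Sephs2, each then with an unadjusted p above 0.05.

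Genes of endoplasmic reticulum stress, heat shock and glucocorticoid signalling mostly lay higher in SNI, and SNI library 24 held the highest level of all 3 lists. Of 27 endoplasmic reticulum stress genes 21 lay higher (median 0.09), of 19 cytosolic heat shock genes 19 lay higher (median 0.08), and of 23 glucocorticoid and CRH genes 17 lay higher (median 0.08). Without SNI library 24 these medians were 0.04, 0.02 and 0.02. The list level in SNI library 24 was 0.30, 0.37 and 0.42, above every sham library, while its striatal level was 0.93; the part that striatal tissue has in these values was not tested. Xbp1, the transcription factor that is spliced in the unfolded protein response, stood at 20.3, 20.8 and 22.3 RPKM in sham and 20.1, 23.8 and 33 RPKM in SNI libraries, a difference of 0.22 (SE 0.09, 95% interval 0.02 to 0.41). The SNI libraries 19, 20, 21 and 22 beside library 24 lay above all sham libraries in Xbp1, and SNI library 23 lay below all of them. Xbp1 differed by 0.13 without sham library 13 and SNI libraries 19 and 24 and then had an unadjusted p above 0.05. Herpud1, a component of protein degradation from the endoplasmic reticulum, differed by 0.14 (SE 0.05, 95% interval 0.03 to 0.25) and by 0.13 without them.

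The chaperone Hspa5 (BiP) stood at 51.2, 60.1 and 78.5 RPKM in sham and 54.9, 68.1 and 105 RPKM in SNI libraries, with an interval from -0.08 to 0.53. Atf4 (-0.01) and Ddit3 (0.02), which act in the PERK arm of the same response, lay close to 0 with intervals of -0.12 to 0.11 and -0.13 to 0.18. Of the glucocorticoid-induced genes, Sgk1 reached 20.8 RPKM in SNI library 24 and at most 9.93 RPKM in sham libraries, and Fkbp5, a co-chaperone that dampens the glucocorticoid receptor, reached 7.10 RPKM there against at most 4.06 RPKM in sham. Tsc22d3 (GILZ) stood at 8.4, 9.1 and 11.2 and 9.24, 10.9 and 17.5 RPKM, a difference of 0.29 (95% interval -0.01 to 0.59). The receptor genes Nr3c1 and Crhr1 differed by 0.01 (-0.14 to 0.15) and 0.03 (-0.23 to 0.30), and Crh itself by -0.16 (-0.40 to 0.07).

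**Figure D3:**
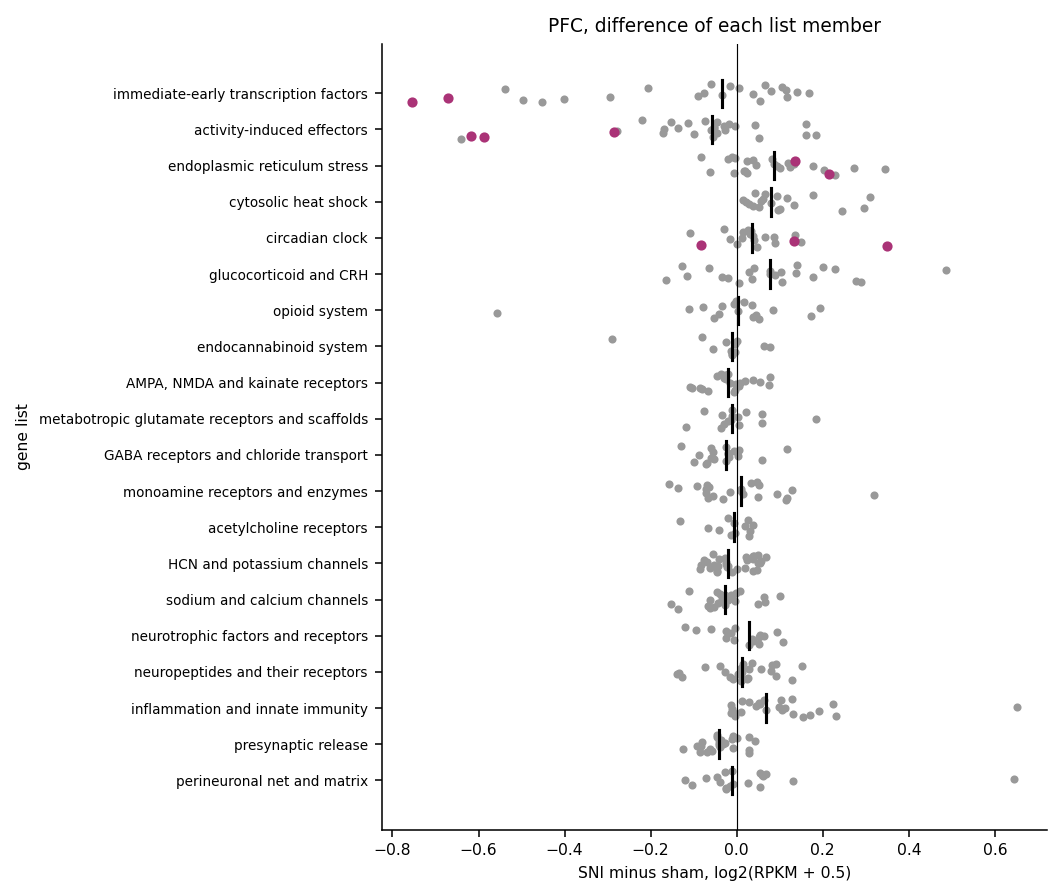
Difference between SNI and sham PFC (horizontal axis, log2(RPKM + 0.5)) of each tested member of 20 gene lists on activity, stress, synapses, pain and immunity (vertical axis), where grey points are genes, purple points have an unadjusted limma p under 0.05 and black bars are list medians. The list medians lie between -0.06 (activity-induced effectors) and 0.09 (endoplasmic reticulum stress).

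Markers of cell types showed how far the libraries differed in tissue makeup, and in bulk tissue fewer cells of a type cannot be told apart from less RNA per cell. Excitatory neuron genes lay at a median of -0.01 (17 tested, 6 higher) and interneuron genes at 0.00 (26 tested, 13 higher), with no member of either list at an unadjusted p under 0.05. Camk2a, a kinase of excitatory synapses, differed by -0.02 (-0.20 to 0.15). The interneuron markers Gad1 (-0.03), Pvalb (-0.19), Sst (0.13) and Vip (0.02) all had intervals that included 0. Upper-layer genes had a median of -0.06 and deep-layer genes 0.05. Tshz2, a factor of deep-layer neurons, was their only member with an unadjusted p under 0.05, at -0.15. Of all tested genes 0.744% lay lower at that threshold. Without sham library 13 and SNI libraries 19 and 24, Tshz2 differed by -0.16 and then had an unadjusted p above 0.05.

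Oligodendrocyte and myelin genes varied most among the cell type lists. All 22 lay higher in SNI with a median of 0.24, and none had an unadjusted p under 0.05. The levels spread from -0.82 to 0.76 over sham libraries and from -0.87 to 1.05 over SNI libraries. Mbp, a structural protein of myelin, stood at 63.7, 106 and 251 RPKM in sham and 48.6, 149 and 279.5 RPKM in SNI libraries. High list levels belonged to sham libraries 15 and 18 and SNI libraries 20 and 24, and low list levels to sham libraries 13, 16 and 17 and SNI libraries 19 and 22. The list median was 0.04 without SNI library 20 and 0.44 without SNI library 19. With the myelin level of each library as a covariate, Npas4 differed by -0.71 and Btg2 by -0.67 on the log2 scale.

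Markers of microglia and astrocytes, which react in the spinal cord after nerve injury, had small differences in the PFC. Of 20 microglial genes 16 lay higher with a median of 0.06, and 0 had an unadjusted p under 0.05. Sham library 13 was lowest in this list at -0.27, and without it the median was -0.00419. Aif1 (Iba1) stood at 3.03, 3.41 and 3.94 RPKM in sham and 3.18, 3.47 and 4.39 RPKM in SNI libraries, with an interval from -0.12 to 0.21, and the fractalkine receptor Cx3cr1 differed by 0.01 (-0.16 to 0.18). The astrocyte filament gene Gfap overlapped widely at 11.2, 20.5 and 32.2 and 16, 19.4 and 37.1 RPKM, and its interval from -0.37 to 0.75 left larger differences in range; the water channel Aqp4 differed by 0.03 (-0.20 to 0.25). Of 36 inflammation genes 25 passed the filter on low values, 20 of these lay higher with a median of 0.07, and the median was 0.02 without SNI library 24. The cytokine genes Tnf, Il1b, Il6 and Ccl2 did not pass the filter, with a highest PFC library of 0.0615, 0.205, 0.0930 and 0.0814 RPKM. Il6ra, a receptor for interleukin 6, stood at 1.13, 1.36 and 1.53 and 1.4, 1.59 and 2.52 RPKM, a difference of 0.22 (0.00 to 0.45) with SNI library 24 highest.

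**Figure D4:**
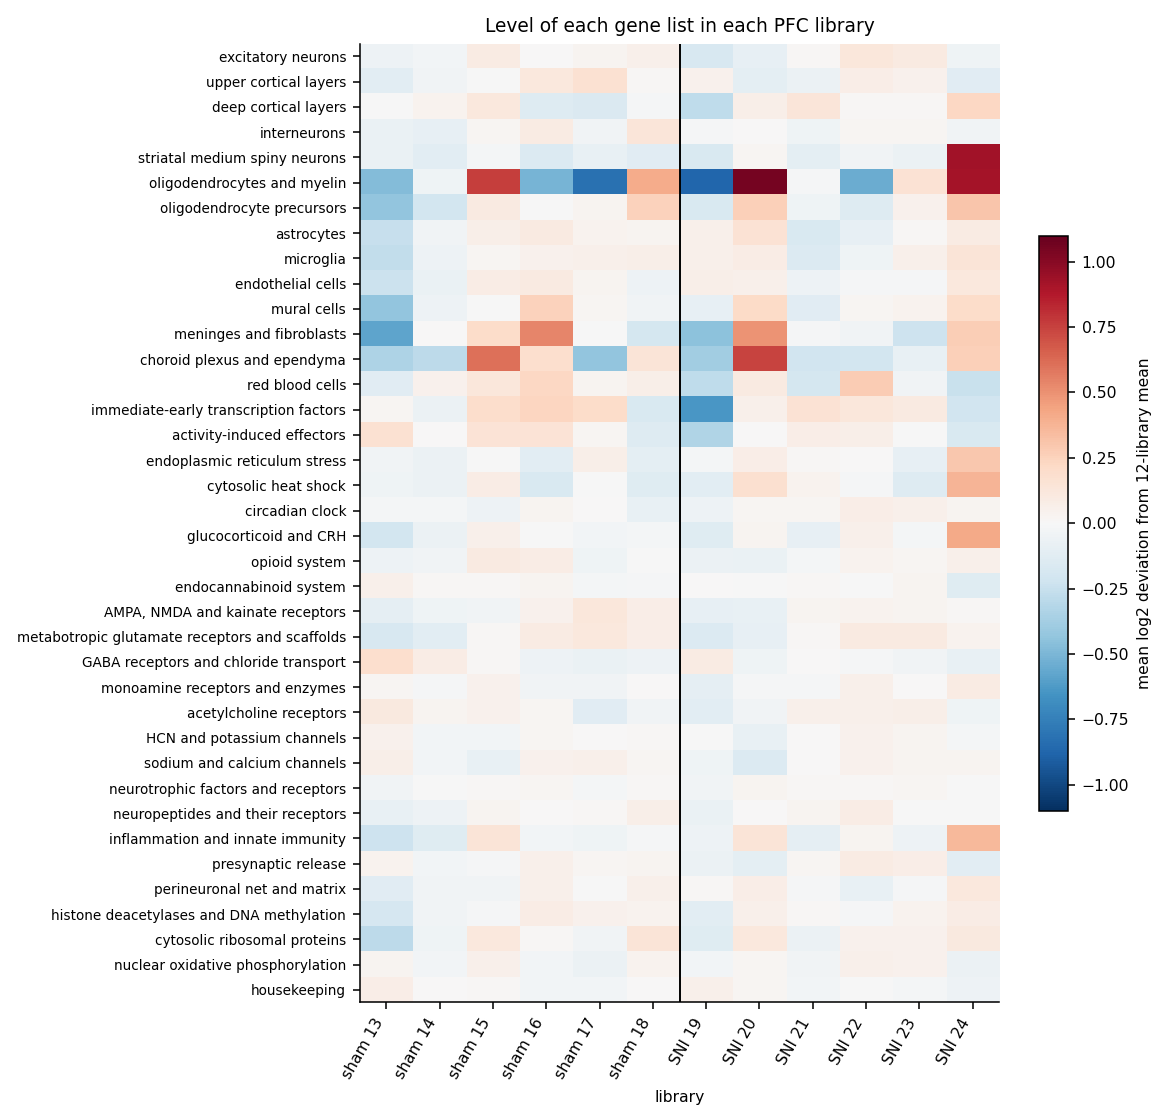
Level of 38 gene lists (rows) in the 12 PFC libraries (columns), as the mean log2 deviation of the tested members from their mean over the 12 libraries; red is high and blue is low. The myelin list varies in both groups, SNI library 24 alone is high in the striatal list, and SNI library 19 is lowest in the immediate-early list at -0.64.

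The opioid system is a target of drugs for chronic pain. Of 17 tested opioid system genes 9 lay higher and 8 lower (median 0.00), and none had an unadjusted p under 0.05. The mu receptor gene Oprm1 did not pass the filter, with a highest PFC library of 0.556 RPKM. The delta receptor Oprd1 stood at 6.1, 7.45 and 8.33 RPKM in sham and 6.81, 7.77 and 8.33 RPKM in SNI libraries (-0.11 to 0.21 for the difference), and the kappa receptor Oprk1 at 1.28, 1.66 and 1.83 and 1.37, 1.47 and 1.74 RPKM (-0.23 to 0.12). Penk, the precursor of the enkephalins, stood at 9.62, 10.7 and 13.7 and 9.03, 11 and 25.1 RPKM, and its high value was that of SNI library 24, the library with the high striatal level. Pdyn, the dynorphin precursor, differed by 0.04 (-0.07 to 0.16). The lowest difference of the list was that of Pomc, the precursor of beta-endorphin and melanocortins, at -0.56 (-1.55 to 0.44), with 0.0789, 0.731 and 4.19 RPKM in sham and 0.146, 0.501 and 0.96 RPKM in SNI libraries. Sham libraries 15 and 16 held its highest values, and all SNI libraries lay within the sham range.

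Of 12 tested endocannabinoid genes 9 lay lower (median -0.01). The lowest was Fabp7, a brain fatty acid binding protein that carries endocannabinoids in the cell, at -0.29 (-0.70 to 0.11), with 13.1, 16.9 and 20.6 RPKM in sham and 7.85, 14.2 and 19.5 RPKM in SNI libraries. The receptor gene Cnr1 stood at 41.2, 43.5 and 48.3 RPKM in sham and 39.5, 43.9 and 47.5 RPKM in SNI libraries, and the degrading enzymes Faah and Mgll differed by -0.01 (-0.14 to 0.12) and 0.00 (-0.17 to 0.16). Of the monoamine genes, Maoa differed by -0.06 (-0.22 to 0.11), the serotonin receptor Htr1a by -0.07 (-0.23 to 0.09) and Htr2a by -0.03 (-0.35 to 0.29). The alpha-2A adrenergic receptor Adra2a, the target of clonidine, stood at 1.23, 1.5 and 1.87 and 1.06, 1.65 and 2.55 RPKM. Of the 12 endocannabinoid and 23 tested monoamine genes, none had an unadjusted p under 0.05.

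Glutamate and GABA receptor genes leaned slightly lower, where 52.0% of all tested genes lay higher. Of 23 AMPA, NMDA and kainate receptor genes 16 lay lower (median -0.02), of 19 GABA receptor and chloride transport genes 15 (median -0.03), and of 25 presynaptic release genes 21 (median -0.04), with no unadjusted p under 0.05 among them. Gria1 stood at 88.9, 101 and 106 RPKM in sham and 87.3, 101 and 105 RPKM in SNI libraries, and Grin2b, an NMDA receptor subunit studied in pain, at 33.1, 37.6 and 42.9 and 32.1, 34.7 and 38.6 RPKM with an interval from -0.27 to 0.06. Slc12a5 (KCC2), the chloride exporter that sets the polarity of GABA responses, differed by -0.02 (-0.19 to 0.14), and Gabrd by -0.10 (-0.26 to 0.06). Without sham library 13 and SNI libraries 19 and 24 the presynaptic median was 0.01. With each library left out in turn it ran from -0.0582 to -0.0238. In the same way the AMPA, NMDA and kainate median ran from -0.0499 to 0.00148. The GABA receptor and chloride transport median ran from -0.0855 to 0.00247, so the sign of these receptor medians was not stable.

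Ion channels are further targets of drugs for pain. The pacemaker channel gene Hcn2 differed by -0.05 (-0.27 to 0.18), and the M-current gene Kcnq3 by -0.05 (-0.23 to 0.14). Cacna2d1, the binding site of gabapentin and pregabalin, stood at 37, 39.2 and 49.4 RPKM in sham and 33.6, 39.1 and 46.5 RPKM in SNI libraries. The sodium channel gene Scn1a differed by -0.14 (-0.37 to 0.09), with sham library 13 highest at 21.1 RPKM. Of 31 HCN and potassium channel genes 13 lay higher, and of 23 sodium and calcium channel genes 5.

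**Figure D5:**
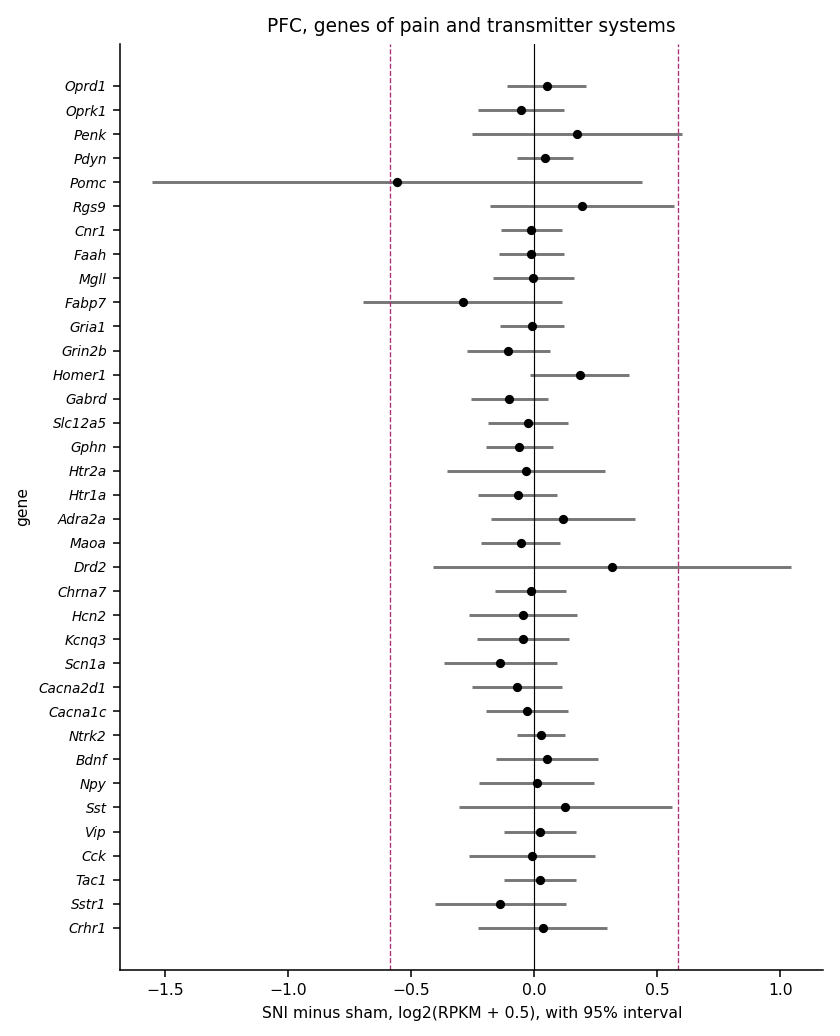
Difference between SNI and sham PFC (horizontal axis, log2(RPKM + 0.5)) with its 95% limma interval (lines) for the genes of the pain and transmitter lists that the text names (vertical axis); dashed lines mark 1.5-fold. All points lie between -0.56 (Pomc) and 0.32 (Drd2), and the intervals of Pomc, Fabp7, Penk and Drd2 cross a dashed line.

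The neuropeptide and neurotrophic genes were measured at high levels. Sst, the somatostatin precursor, stood at 99, 172 and 229 RPKM in sham and 118, 168 and 208 RPKM in SNI libraries, Npy at 49.4, 66.9 and 84.8 and 63.7, 66.8 and 75.3 RPKM, and Cck at 159.6, 205 and 229.7 and 163, 186 and 243 RPKM. For Sst and Npy the SNI range lay within the sham range, and for Cck 2 SNI libraries lay above all sham libraries. Ntrk2 (TrkB), the receptor of BDNF, differed by 0.03 (-0.07 to 0.13). The chromatin genes Hdac4, Hdac5 and Dnmt3a differed by 0.02 (-0.16 to 0.20), 0.02 (-0.42 to 0.46) and 0.01 (-0.11 to 0.13), with SNI library 19 lowest of its group in both deacetylases. The list of 30 tested chromatin genes had a median of 0.01.

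To see whether the PFC differed from the other regions, the SNI minus sham difference of the PFC was set against those of NAc and PAG in 1 model of all 36 libraries. Against NAc, 0 of 15639 genes (0%) passed the adjusted threshold and 178 (1.14%) had an unadjusted p under 0.05. Against PAG, 0 (0%) passed and 2779 (17.8%) had an unadjusted p under 0.05; 1144 genes passed when sham PFC library 13 was left out, so this comparison turned on that library. Npas4 differed by -0.76 in PFC, -0.36 in NAc and 0.18 in PAG, each region fitted alone. The PFC minus PAG difference of Npas4 was -0.93 (SE 0.21, limma, adjusted p = 0.212), and the PFC minus NAc difference was -0.39 (SE 0.21, adjusted p = 0.999). In NAc, Npas4 averaged 4.87 ± 1.13 RPKM in sham and 3.71 ± 1.01 RPKM in SNI libraries (SD, n = 6), below the PFC level of sham libraries.

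The other leading genes can be placed in the same way. Btg2 differed by -0.62 in NAc and -0.26 in PAG beside -0.67 in PFC, and its PFC minus NAc difference was -0.05 (SE 0.24). Per2 lay higher in all regions, with differences of 0.35 in PFC, 0.42 in NAc and 0.40 in PAG, and Hey2 likewise with 0.25, 0.25 and 0.20. Cyr61 differed by -0.10 in NAc and 0.00 in PAG, and its PFC minus PAG difference of -0.58 (SE 0.20) did not pass adjustment (0.215). Arc differed by -0.30 in NAc and 0.44 in PAG, and Ier2, a nuclear protein of the early wave, by 0.26 and 0.36 beside -0.54 in PFC. Ier2 was one of the genes of lowest p in the PFC minus NAc contrast, where its difference was -0.80 (adjusted p = 0.999).

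The protein-coding genes that varied most within the PFC groups all had a limma p of 0.329 or more between them. Pcsk1n (proSAAS), an inhibitor of prohormone processing, ranged from 1.36 to 26.1 RPKM in sham and from 1.5 to 15.3 RPKM in SNI libraries, with sham library 13 and SNI library 19 lowest of their groups. The ribosomal protein gene Rpl36 (7.67 to 78.8 and 8.69 to 71.4 RPKM) and C1qtnf4 (0.955 to 16 and 0.883 to 8.71 RPKM) were lowest in the same libraries, the ones with the steepest GC slopes. Rpl36 may share reads with near-identical copies, so its level is uncertain. Gh, growth hormone, ranged from 0 to 33 RPKM in sham and from 0.213 to 2.55 RPKM in SNI libraries, and sham library 16 held the high value. Lars2, the mitochondrial leucyl-tRNA synthetase, was highest in SNI library 21 at 166 RPKM and in sham library 13 at 48.1 RPKM, and stayed between 11.9 and 24.2 RPKM elsewhere.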

How the data were processed

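RNA was sequenced from PFC, NAc and PAG. The authors deposited 1 table of RPKM values for 31554 genes. TopHat2, HTSeq and the build mm10 appear in the submitters' processing notes. Their roles, settings and strand handling were not given in the sources used here, so overlapping and antisense genes are uncertain. Every deposited value (100.0%) came to a whole number of reads once scaled by gene length and library size (tolerance 0.001), which gave each library's depth. Between PFC libraries of a group the chi-square per degree of freedom was at least 7.68, so none was a copy of another. Gene positions came from GENCODE M21, which annotates 97.9% of the identifiers, and promoter sequences from RefSeq (GRCm38.p6), with a window for 195 of the 271 named genes.

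Sham and SNI were compared by limma 3.58.1 in R 4.3.3 (mean-variance trend, two-sided), since the deposited unit is RPKM and not a count. The scale was log2(RPKM + 0.5), which understates the change of low genes, and genes averaging 0.5 RPKM or more in PFC were kept, with Benjamini-Hochberg adjustment at 0.05. At that level a gene of 1 kb had 18.2 reads in the shallowest PFC library; this covers counting error only. Contrasts between regions used all 36 libraries. The method was tested on simulated data with errors drawn independently for each gene and library. Variation shared across genes, as on the leading axis of the PFC libraries, was not simulated, so the test does not cover it. The 38 lists (820 of 829 entries found) were described by counts and medians, with no set test. A list level is the mean log2 deviation of its tested members from their mean over the 12 libraries.

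Named genes were the 12 of lowest p per direction (protein-coding, mean of at least 1 RPKM), up to 8 per direction whose groups did not overlap, the 6 largest differences per direction at an unadjusted p under 0.05, fixed markers and up to 3 further members per list, up to 4 per region contrast, and the 8 of largest SD within groups. Some genes that these rules name are not reported here. Genes near Ide and those of lists that did not pass the filter were named after their values were seen. The members, lists and rules were chosen with earlier results of these data known. Alternatives were the pseudocount (0.1 or 1), the filter (none or 2 RPKM), median-of-ratios or quantile scaling, a myelin covariate, array weights, a fit of all 36 libraries, voom on the recovered reads and each library left out. Added after seeing the data were a GC slope covariate, leaving out sham library 13 and SNI library 19 (farthest out in GC slope), and leaving out SNI library 24 (farthest out in striatal level) with them.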

Additional observations from a re-analysis of the deposited data

Results flagged for a closer look

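Over 620 group values examined, 47 single libraries lay far from the other 5 of their group, as judged by Dixon's criterion at the 95% level. Chance alone picks out about 1 in 20 groups. SNI library 24 stood apart in Mfsd2a at 9.43, Drd2 at 6.65, Adora2a at 4.31, Rgs9 at 9.07, Ppp1r1b at 19.9, Syndig1l at 4.16 and Esam at 5.47 RPKM. SNI library 24 also stood apart in Bdnf at 4.41, Creld2 at 13.6, Fkbp5 at 7.1, Sgk1 at 20.8, Map3k6 at 1.59, Penk at 25.1 and Il6ra at 2.52 RPKM. SNI library 19 stood apart in Fezf2 at 16.6, Gad2 at 34.1, Junb at 0.769, Ier2 at 0.495, Per1 at 9.48, Gphn at 24.2 and Chrna7 at 6.2 RPKM. SNI library 19 also stood apart in Hdac5 at 11.4, Hdac4 at 8.59 and Actb at 196 RPKM. Sham library 13 stood apart in Cldn5 at 5.79, Nefm at 26.1, Homer1 at 21.9, Scn1a at 21.1, Sstr1 at 6.51, Lars2 at 48.1 and Nudt3 at 70.5 RPKM. Sham library 17 stood apart in Mfsd2a at 8.08, Chrna7 at 6.2, Cacna1c at 12.5 and Tac1 at 3.71 RPKM. Sham library 18 stood apart in Dusp1 at 6.62, Fos at 6.09 and Egr2 at 1.04 RPKM. SNI library 21 stood apart in Lars2 at 166 RPKM. SNI library 23 stood apart in Fam101b at 3.09 RPKM. Sham library 15 stood apart in Syndig1l at 1.14 RPKM. Sham library 16 stood apart in Ogn at 2.29 RPKM. Among list levels, SNI library 24 stood apart in the striatal medium spiny neuron list at 0.93, in the glucocorticoid and CRH list at 0.42 and in the endocannabinoid list at -0.13, and sham library 13 in the microglia list at -0.27, all as mean log2 deviations. SNI library 20 was the deepest of its group at 64.7 M reads. The values of SNI library 24 include the striatal genes Drd2, Adora2a, Rgs9, Ppp1r1b and Syndig1l, and those of sham library 18 the activity-induced genes Dusp1, Fos and Egr2. Their part in the comparison of the groups was not tested beyond leaving libraries out.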

How the results depend on the processing

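Under every alternative run, 0 genes passed adjustment in PFC, and Npas4 kept its direction, from -0.90 to -0.67 with each library left out in turn (exact permutation p from 0.00217 to 0.0152). The counts at an unadjusted p under 0.05 moved more. Against 107 higher and 113 lower, they were 366 and 396 with no filter, 57 and 51 with the filter at 2 RPKM, 259 and 429 with array weights, 232 and 296 with the GC slope covariate, and 175 and 272 without sham library 13 and SNI library 19. Those higher were 185 in the fit of 36 libraries, and those lower 211 when SNI library 24 was left out as well. With a fold of at least 1.3 (17 higher, 29 lower), they were 43 and 48 with no filter, 3 and 8 with the filter at 2 RPKM and 27 and 44 with voom. There were 33 higher with pseudocount 0.1, 67 lower with array weights, and 53 lower without the 2 libraries and also without the 3. With each library left out in turn the ranges were 71 to 181 higher and 69 to 261 lower at the unadjusted p, 15 to 26 and 22 to 49 with the fold, and 8 to 23 and 5 to 23 for groups that did not overlap; leaving out SNI library 19 gave the highest counts at the unadjusted p (181 and 261). The PFC minus PAG contrast called 5 genes with pseudocount 1 and 0 to 1144 with a PFC library left out, 1144 without sham library 13. The median of the neurotrophic list was -0.00481 with the filter at 2 RPKM and 0.00157 to 0.0348 with each library left out, against 0.03; the choroid plexus list had no member under that filter. The cause of these shifts was not tested, apart from the change in genes tested under the filters. The medians of the activity-induced lists changed sign without sham library 13 and SNI libraries 19 and 24. That choice leaves out the lowest SNI libraries of these lists and keeps the lowest sham library.

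No paired analysis was possible because sham and SNI libraries share no replicate number. The labels also do not say whether libraries of different regions came from the same mice. The contrasts between regions treated all 36 libraries as independent, and their SEs and p-values rest on that assumption. Oprm1, Tnf, Il1b, Il6 and Ccl2 did not pass the filter on low values, and their difference was not tested. Dissection, pooling and the time of day were not available as covariates. Unequal dissection cannot be told apart from a difference in expression within a library.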

Other observations

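Among the genes of lowest p, Btaf1 and Ide are neighbours on chromosome 19 (chr19:36926079-37012752 and chr19:37268743-37337852, mm10). The window of 0.5 Mb around Ide held 8 tested genes, Ide and Btaf1 included. Between Btaf1 and Ide, Cpeb3 differed by 0.07, March5 by -0.05 and Gm23918, annotated as an rRNA gene inside Cpeb3 with a median of 0.493 RPKM in sham, by 0.42 (SE 0.17), and on the outer sides Fgfbp3 differed by 0.05 and Exoc6 by -0.09. SNI libraries 19, 20 and 24 held the 3 highest Ide values, at 17.6, 19.5 and 17.3 RPKM, and the 3 highest Btaf1 values, at 13.3, 14.7 and 14.3 RPKM. In NAc, Ide stood at 12.7, 14 and 15.1 RPKM (lowest, median and highest) in sham and 13.6, 15.6 and 17.9 RPKM in SNI libraries.

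Other gene groups showed small differences or large spread. Of 47 cytosolic ribosomal protein genes 35 lay higher with a median of 0.05, and the list was lowest in sham library 13 at -0.29. Of 35 nuclear genes of oxidative phosphorylation 15 lay higher with a median of -0.01. All 7 tested red blood cell genes lay lower with a median of -0.12, among them Alas2, the first enzyme of haem synthesis in red cells, at -0.22 (limma, adjusted p = 1.0). Ttr, the transthyretin gene of the choroid plexus, ranged from 0.293 to 8.41 RPKM in sham and from 0.0982 to 2.48 RPKM in SNI libraries. Thbs4, a matrix protein, ranged from 0.586 to 2.63 RPKM in sham and reached 10.1 RPKM in 1 SNI library.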
